A study of Homo sapiens with 16 samples.

Results

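Harmine, a beta-carboline alkaloid, and INDY, a benzothiazole, both inhibitors of the kinase DYRK1A, shifted 2172 of 20446 tested genes at least 1.5-fold in the same direction in quiescent human cells. Of these, 1007 genes were higher and 1165 lower with both compounds. They were picked on their fold changes alone, with a log2 fold change of at least 0.585 or at most -0.585 for harmine against water and again for INDY against DMSO, both from 1 model of all 16 libraries. The fold changes and their standard errors (SE) given below for single genes are therefore descriptions, and no p-value is attached to them. DYRK1A and other targets that the compounds share cannot be told apart in these libraries.

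The cells were U2OS, an established osteosarcoma line, kept confluent and without serum for 48 h in all 4 groups, with compound or vehicle present for the last 24 h. Water was the solvent of harmine hydrochloride (10 µM) and DMSO that of INDY (25 µM), and each compound was set against its own vehicle group, named water and DMSO here. Each group had 4 poly(A) RNA libraries, so no library entered both comparisons, and the doses and vehicles differed. Nothing in the labels or methods ties the 4 libraries of a group to separate cultures, so errors and p-values measure the spread between libraries, which may be technical. In such bulk RNA, fewer cells that express a gene and less of its RNA per cell cannot be told apart.

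DYRK1A is a serine/threonine kinase that phosphorylates LIN52, a subunit of the MuvB core, and thereby lets MuvB join the pocket proteins p107 or p130 (genes RBL1 and RBL2), E2F4 or E2F5 and a DP partner as the DREAM complex. In resting cells DREAM sits on promoters of cell cycle and DNA repair genes and represses them. It reaches G1/S genes mostly through E2F sites and G2/M genes through CHR elements, which LIN54 binds. Harmine also inhibits monoamine oxidase A, and both compounds also bind CLK kinases, which phosphorylate splicing factors.

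The genes lower with both compounds held a large share of the interferon response, and their promoters show what is meant by its usual response element. For 3 of these genes, the 150 bases upstream of the RefSeq transcription start are printed below, 5′ to 3′ on the coding strand (GRCh38.p14), with matches of GAAANNGAA on either strand in capitals. This short form of the interferon-stimulated response element was chosen after the values were seen. RBL1, which encodes p107 and was the only DREAM subunit at least 1.5-fold higher with both compounds, is shown with matches of the E2F site TTTNNCGN (C or G at each N) and of the CHR element TTTGAA in capitals, with both strands searched.
IFIT1, plus strand, chr10:89392473-89392622: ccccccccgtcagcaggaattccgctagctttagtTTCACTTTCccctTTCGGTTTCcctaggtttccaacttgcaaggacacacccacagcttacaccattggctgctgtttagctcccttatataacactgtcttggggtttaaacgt
IFIT3, plus strand, chr10:89327847-89327996: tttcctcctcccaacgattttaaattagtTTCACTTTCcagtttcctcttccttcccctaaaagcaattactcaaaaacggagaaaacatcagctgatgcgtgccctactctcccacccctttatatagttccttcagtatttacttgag
RSAD2, plus strand, chr2:6865735-6865884: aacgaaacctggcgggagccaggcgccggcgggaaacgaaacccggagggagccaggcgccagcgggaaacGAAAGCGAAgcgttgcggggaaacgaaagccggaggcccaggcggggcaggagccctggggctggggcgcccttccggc
RBL1, minus strand, chr20:37095998-37096147: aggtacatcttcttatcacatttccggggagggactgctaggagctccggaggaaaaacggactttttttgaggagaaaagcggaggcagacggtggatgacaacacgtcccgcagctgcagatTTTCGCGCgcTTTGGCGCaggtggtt
IFIT1 held 2 matches of the interferon form, and IFIT3 and RSAD2 held 1 each. RBL1 held 2 E2F matches within 30 bases of its start and no CHR match.

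Of all genes tested, 4.93% were at least 1.5-fold higher and 5.7% at least 1.5-fold lower with both compounds, together 10.6%. The rule fixed these shares, and they serve as the background for the gene groups below. The 1007 genes higher with both were 42.6% of the 2366 past 1.5-fold higher with harmine and 30.3% of the 3324 past it with INDY. The 1165 lower with both were 54.2% of the 2151 lower with harmine and 25.7% of the 4537 lower with INDY. In contrast, 499 genes were past 1.5-fold upward for harmine and downward for INDY, and 238 the reverse. Among the 1007, 644 (64.0%) had every treated library above every control library for both compounds, against 13.4% of all genes tested. The same held downward for 868 of the 1165 (74.5%), against 13.5%. Since the rule used the fold changes of these libraries, nothing is read from these shares. The libraries held 44301910 to 65889667 counts (median 52426340). Markers of mesenchymal cells were present, with VIM at 1900 to 2890 CPM (CPM being counts scaled to the size of the library) over the 16 libraries, COL1A1 at 106 to 160 and RUNX2 at 19.4 to 51.2. Of the epithelial and blood markers, EPCAM was at 2.17 to 4.06 CPM, CDH1 at most 0.508, PTPRC at most 0.595 and CD14 at most 2.26, and GRHL2, ESRP1, KRT5, CD3E, HBB and the mesenchymal COL1A2 were not among the genes tested. The summed CPM of the 2 tested blood markers was 0.358 to 0.389 with water, 0.376 to 0.778 with harmine, 0.188 to 0.301 with DMSO and 1.11 to 2.26 with INDY. With INDY the 2 moved in opposite directions, with log2 fold changes of 4.41 for CD14 and -2.93 for PTPRC, so the higher sum came from CD14 alone. The part of these markers in the results was not tested.

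**Figure D1:**
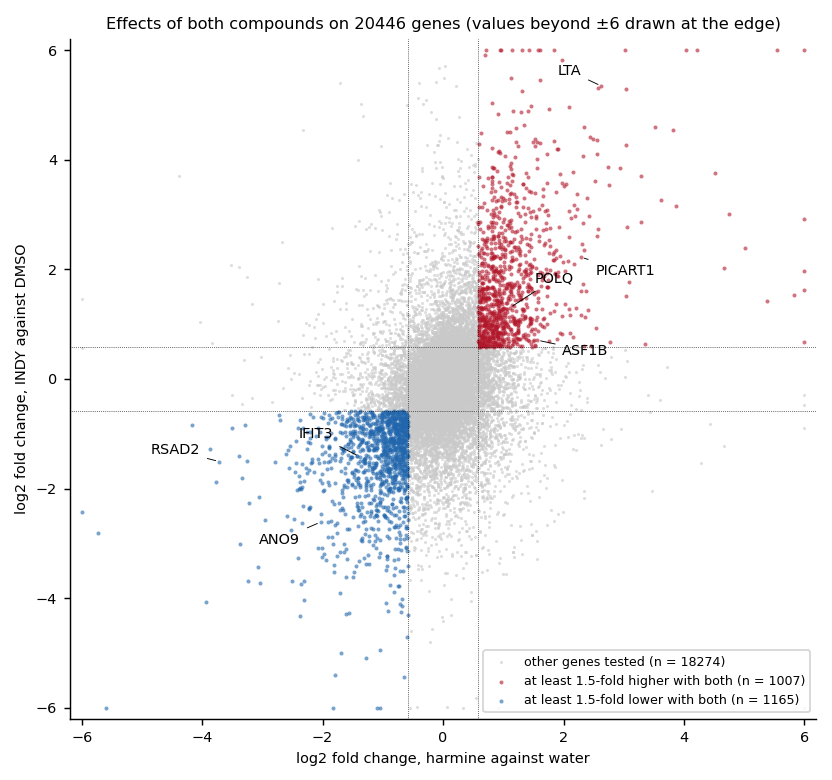
Log2 fold change with harmine against water (x axis) and with INDY against DMSO (y axis) for each of the 20446 genes tested. Dotted lines mark 1.5-fold, and the genes past it in the same direction with both compounds, 1007 higher (red) and 1165 lower (blue), fill the upper right and lower left corners.

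Among genes with a gene name and a mean log2 CPM of at least 1 whose treated and control libraries did not overlap, LTA was at the top of the genes higher with both. LTA encodes lymphotoxin alpha, a cytokine of the tumour necrosis factor family, and lies at chr6:31572054-31574324 (GRCh38). The rows of LTA, LTB, CCL5 and DYRK1B carry the identifier of an alternative-locus copy of the gene, and how counts of the copies were joined is not given in the sources used here. It had 0.894, 0.698, 0.626 and 1.16 CPM in the 4 water libraries and 5.15, 5.23, 5.22 and 5.02 CPM with harmine. It had 0.601, 0.716, 0.531 and 0.667 CPM with DMSO and 23.5, 24.01, 30.4 and 24.1 CPM with INDY. All 8 treated libraries were above all 8 controls, and the log2 fold changes were 2.63 (SE 0.14) with harmine and 5.35 (SE 0.13) with INDY.

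PICART1, a long non-coding RNA gene on chr17, moved almost equally with both compounds. Its CPM were 1.89, 2.68, 2.77 and 2.31 with water and 11.5, 13.2, 11.4 and 11.4 with harmine. They were 2.52, 3.18, 2.57 and 2.56 with DMSO and 11.8, 14.1, 10.8 and 14.04 with INDY. The groups did not overlap, and the log2 fold changes were 2.29 (SE 0.11) and 2.23 (SE 0.11).

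Several of the 15 largest rises were genes of cilia and flagella or of sperm. DNAI4, an intermediate chain of axonemal dynein, went from 1.24 to 2.10 CPM in water to 6.53 to 7.79 with harmine, and from 1.09 to 1.49 in DMSO to 5.20 to 6.26 with INDY. ACRBP, which encodes the binding protein of proacrosin in the sperm acrosome, went from 3.42 ± 0.367 to 12.1 ± 0.615 CPM after harmine and from 3.47 ± 0.363 to 16.9 ± 1.43 after INDY (mean ± SD, n = 4 libraries each, as in all such values). DYNLT2B, a dynein light chain of the cilium, had log2 fold changes of 1.74 and 1.67, and 35.0% of its distinct 31-base stretches of transcript also occur in another gene. SAXO2, a stabilizer of axonemal microtubules, had 1.38 and 1.91. In a family of axonemal dyneins and their assembly factors that was put together after these values were seen, 5 of 32 tested genes were higher with both compounds, none was lower, and the medians of the family were 0.14 with harmine and -0.05 with INDY.

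The rest of the 15 were of mixed kinds. MEF2B, a transcription factor of the MEF2 family, went from 1.45 ± 0.231 to 4.79 ± 0.84 CPM after harmine and from 1.95 ± 0.444 to 12.9 ± 0.658 after INDY, but 72.1% of its stretches occur in another gene, so its reads may be split. GUCA1B, a calcium sensor of photoreceptors, had log2 fold changes of 1.34 (SE 0.10) and 3.31 (SE 0.09), and EFCAB12, an EF-hand protein, had 1.36 and 2.86. The non-coding genes LINC02732 (1.57 and 1.61), LNCTAM34A (1.58 and 1.48) and ERVK9-11 (1.51 and 2.18) were also among them, with 26.5% of the sequence of ERVK9-11 shared. KLRA1P, a pseudogene of a killer cell receptor whose sequence is 100% shared with another annotated gene, had 1.29 and 1.46. CCDC92, a coiled-coil protein of centrioles, had 1.36 and 1.88, and CD72, a B cell co-receptor, had 1.30 and 1.28. None of these 15 genes overlapped between treated and control libraries with either compound, since the rule for naming them required that.

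Most DREAM targets were called higher for the mean of both effects, and few were past 1.5-fold with both compounds. Of 56 DREAM-associated DNA repair genes tested, 40 were called higher and 2 lower for the mean of both effects (edgeR's quasi-likelihood test, adjusted p under 0.01), with a median of 0.32. Of 39 G1/S targets, 29 were higher and 5 lower (median 0.40), and of 47 G2/M targets, 29 were higher and 4 lower (median 0.28). Over all genes, 31.7% were called higher and 31.8% lower for the mean effect, 63.5% in all, and the median was -0.00. Those past 1.5-fold with both were 4 of 56 (7.14%), 3 of 39 (7.69%) and 3 of 47 (6.38%), and none of these genes was lower with both. Over all genes tested 4.93% were higher with both, but that share fell with level. It was 1.4% at a mean log2 CPM of 3 to 5 and 0.444% above 5. Of protein-coding genes at 1 or more it was 1.47%. POLQ, for example, was at 4.04 and TONSL at 7.12. Whether the lists exceed the share at their own level was not tested. The medians were unequal between compounds for G1/S genes (0.64 with harmine, 0.13 with INDY) and repair genes (0.49 and 0.15), and 0.24 and 0.23 for G2/M genes.

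POLQ, a polymerase that joins DNA ends through microhomology, was the 1 of these 10 genes at least 2-fold higher with both. It had 10.4, 11.1, 10.9 and 10.1 CPM with water and 23.5, 23.4, 22.4 and 22.3 with harmine. It had 10.8, 11.8, 10.99 and 10.2 CPM with DMSO and 28.2, 27.2, 24.8 and 27.6 with INDY. The 4 groups gave a pair of separate levels, and the log2 fold changes were 1.11 (SE 0.05) and 1.30 (SE 0.05).

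The other repair genes were RAD54L, a motor protein of homologous recombination, TONSL, which reads newly replicated chromatin, and TIMELESS, a replication fork protector. RAD54L went from 16.8 ± 0.764 to 31.7 ± 0.362 CPM after harmine and from 17.5 ± 0.781 to 31.4 ± 1.07 after INDY. TONSL went from 102 ± 3.54 to 201 ± 10.2 CPM and from 105 ± 2.73 to 173 ± 8.57. TIMELESS went from 82.8 ± 2.48 to 138 ± 2.83 CPM and from 80.8 ± 1.54 to 126 ± 4.94. For each of them the treated libraries stood clear of both vehicle groups. ASF1B, a histone chaperone of replicating chromatin that is in none of these lists and was picked after its values were seen, had 21.4 ± 2.01 CPM in water against 63.1 ± 1.11 after harmine, and 25.0 ± 0.72 in DMSO against 40.9 ± 1.87 after INDY. FANCD2, which marks DNA crosslinks for repair, lay just outside the rule, with log2 fold changes of 1.02 (SE 0.05) with harmine and 0.58 (SE 0.06) with INDY.

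The 3 G1/S genes were RBL1, ORC1 and TK1. RBL1 had 23.3, 26.0, 24.8 and 24.2 CPM with water against 46.3, 47.1, 46.0 and 46.5 with harmine. It had 26.0, 28.4, 27.0 and 27.3 CPM with DMSO against 44.9, 47.5, 41.2 and 48.3 with INDY. Its log2 fold changes were 0.92 (SE 0.05) and 0.74 (SE 0.05). ORC1, the large subunit of the origin recognition complex, had 25.3, 30.1, 28.9 and 25.9 CPM with water and 54.5, 52.5, 49.3 and 50.7 with harmine. Its INDY libraries lay at 45.6 to 55.3 CPM against 29.2 to 31.8 with DMSO. TK1, the S-phase thymidine kinase, went from 79.4 ± 4.14 to 134 ± 4.35 CPM after harmine and from 84.5 ± 3.03 to 128 ± 5.41 after INDY. The 3 G2/M genes were the survival factor and mitotic regulator BIRC5 (0.62 and 0.64), the kinase AURKB of the same chromosomal passenger complex (0.72 and 0.62) and PLK4, the kinase that starts centriole duplication (0.60 and 0.66), all with SE of at most 0.07. Without water replicate 4, only 1 of these 3 G2/M genes stayed past 1.5-fold.

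Of the 11 DREAM subunits themselves, 10 were called higher for the mean effect and none lower, but RBL1 alone was past the rule. Of all genes tested, 31.7% were called higher. Treated and control libraries overlapped for RBL2, E2F5 and LIN52 with INDY and for LIN37 with harmine. The calls of TFDP1, LIN52 and LIN37 were lost in some refits. RBL2 had log2 fold changes of 0.37 (SE 0.03) with harmine and 0.07 (SE 0.03) with INDY. LIN54 had 0.34 and 0.41, LIN9 had 0.25 and 0.15, RBBP4 had 0.29 and 0.27, and TFDP2 had 0.48 and 0.27. LIN52, the DYRK1A substrate, had 0.12 (SE 0.04) and 0.05 (SE 0.04), E2F4 had 0.02 and -0.05, E2F5 had 0.47 and 0.15, and LIN37 had 0.06 and 0.28. TFDP1 moved in opposite directions, with 0.50 (SE 0.02) and -0.38 (SE 0.02). DYRK1A RNA was at 17.99 ± 0.869 CPM after harmine against 19.1 ± 0.749 in its vehicle, and at 20.9 ± 1.64 after INDY against 17.7 ± 0.501, so the target gene itself was no member. Its relative DYRK1B was a member, going from 1.92 ± 0.298 to 3.19 ± 0.473 CPM and from 2.04 ± 0.297 to 4.19 ± 0.36, the 1 such gene among 13 DYRK, CLK and HIPK kinases.

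**Figure D2:**
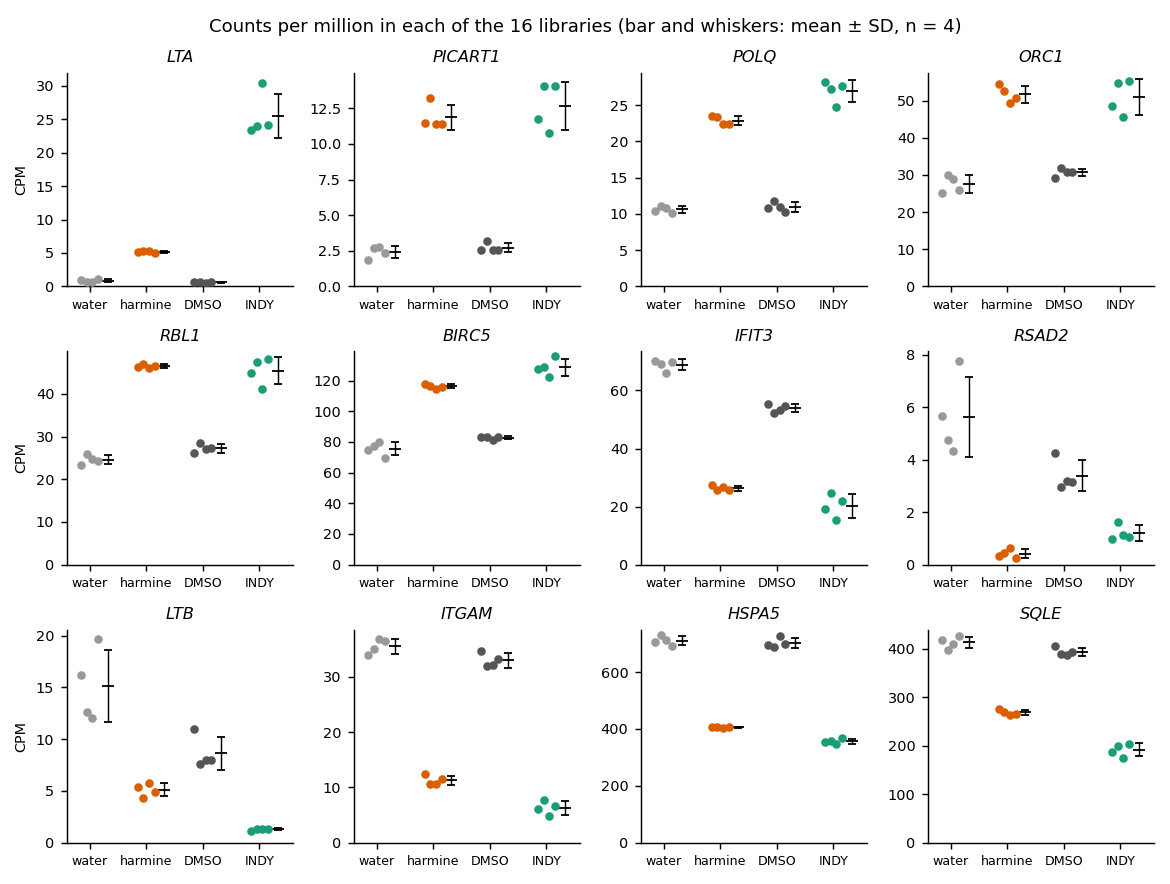
CPM of 12 genes (y axis, linear from 0) in every library of the 4 groups (x axis), with the mean ± SD of 4 libraries as a bar with whiskers. In each panel the treated points lie wholly above (LTA, PICART1, POLQ, ORC1, RBL1, BIRC5) or below (IFIT3, RSAD2, LTB, ITGAM, HSPA5, SQLE) both vehicle groups. The water and DMSO points do not overlap either in the panels of LTB, RSAD2 and IFIT3, where DMSO is lower, and of RBL1 and BIRC5, where it is higher.

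Interferon-stimulated genes were the list with the largest share past the rule. These genes encode antiviral proteins and sensors of viral RNA that interferon signalling turns on. Of 33 tested, 29 were called lower and 2 higher for the mean effect (median -0.78, against -0.00 over all genes), 16 (48.5%) were at least 1.5-fold lower with both compounds, where 5.7% of all genes were, and none was higher with both. The 16 were RSAD2, IFIT1, IFIT2, IFIT3, OASL, OAS1, OAS2, MX2, RIGI, IFIH1, DDX60, USP18, SAMD9L, IFI44, IFI44L and XAF1. All 16 stayed past the rule when water replicates 1 and 4, or INDY replicates 1 and 3, were left out.

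IFIT3, an antiviral protein of the IFIT complex, was at 70.1, 69.2, 66.1 and 69.8 CPM with water and 27.3, 25.6, 26.7 and 25.7 with harmine. It was at 55.3, 52.1, 53.3 and 54.5 CPM with DMSO and 19.0, 24.7, 15.2 and 22.1 with INDY. No treated library reached a control library, and INDY replicates 1 and 3 were below 2 and 4. The log2 fold changes were -1.39 (SE 0.09) and -1.42 (SE 0.09).

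RSAD2 encodes viperin, a radical enzyme that blocks viral RNA synthesis. It had 5.66, 4.73, 4.32 and 7.75 CPM with water and 0.343, 0.452, 0.647 and 0.239 with harmine. It had 4.26, 2.94, 3.20 and 3.16 CPM with DMSO and 0.961, 1.64, 1.12 and 1.05 with INDY. The fall was deeper with harmine, with log2 fold changes of -3.72 (SE 0.25) and -1.51 (SE 0.22), and water replicates 1 and 4 were the 2 highest libraries. Both promoters are among those printed above.

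The sensors of viral RNA moved in the same way. RIGI went from 142 ± 22.6 to 64.3 ± 0.837 CPM after harmine and from 104 ± 7.78 to 34.3 ± 0.456 after INDY. IFIH1, which encodes MDA5, had log2 fold changes of -0.68 (SE 0.06) and -0.86 (SE 0.06), and IFIT1 had -1.64 (SE 0.15) and -1.32 (SE 0.16). OASL, a protein that assists RIG-I, went from 30.4 ± 1.37 to 11.97 ± 0.59 CPM and from 20.7 ± 0.752 to 8.53 ± 1.09. DDX60, a helicase of the same pathway, had -1.04 and -2.02, and IFI44L had -0.81 and -2.49. OAS2, MX2 and XAF1 were also past the rule, but at least 1 treated library of each overlapped a control with 1 compound. Transcription factor genes of the pathway, STAT2 and IRF9, were not members, with log2 fold changes of 0.03 and -0.35 for STAT2 and -0.51 and 0.14 for IRF9, and neither was ISG15 (-0.86 and -0.07). GBP4, an interferon-inducible GTPase outside this list, was among the 15 largest falls, from 24.4 ± 0.271 to 8.35 ± 0.469 CPM after harmine and from 23.4 ± 1.11 to 8.54 ± 1.93 after INDY.

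A second immune group, NF-kB targets, chemokines and cytokines, had 23 of 34 genes called lower and 3 higher for the mean effect (median -0.38), and 7 (20.6%) past 1.5-fold lower with both. LTB, which encodes lymphotoxin beta, the partner chain of LTA, lies near LTA on chr6 and went the other way. It had 16.15, 12.6, 12.1 and 19.65 CPM with water against 5.402, 4.36, 5.79 and 4.88 with harmine. It had 11.03, 7.58, 7.97 and 8.01 CPM with DMSO against 1.141, 1.376, 1.349 and 1.346 with INDY. The log2 fold changes were -1.56 (SE 0.15) and -2.73 (SE 0.18). The chemokine genes CCL2 (-0.73 and -1.55), CCL5 (-0.77 and -1.47) and CXCL3 (-0.72 and -1.02) were lower with both, as was TNFSF10, the death ligand TRAIL (-0.75 and -2.70). CXCL10 and ICAM1 were members too, but CXCL10 was at most 0.543 CPM in any library and ICAM1 at most 0.894. Without water replicates 1 and 4, 6 of the 7 genes stayed past the rule. LTA was the 1 gene of this group that was higher with both.

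Genes of the MHC class II locus, which present peptides to helper T cells, were noticed among the falls after the values were seen. Of 13 tested class II genes, 9 were past 1.5-fold lower with both and none was higher, with medians of -0.84 with harmine and -0.83 with INDY, and 5 of the 9 (HLA-DRB5, HLA-DRB1, HLA-DQB1, HLA-DQB2 and HLA-DOB) were consecutive tested genes on chr6. HLA-DPA1 had 6.08, 7.77, 7.02 and 6.73 CPM with water and 4.44, 3.84, 3.55 and 3.68 with harmine. It had 7.63, 7.82, 7.74 and 7.34 CPM with DMSO and 3.98, 4.41, 4.05 and 4.06 with INDY, so the 8 treated libraries lay below the 8 controls. HLA-DQB1 went from 10.3 ± 0.417 to 6.19 ± 0.394 CPM and from 9.42 ± 0.754 to 5.28 ± 0.27. HLA-DRB5 overlapped between treated and control libraries with both compounds, at no more than 0.398 CPM, and was not called for the mean effect (edgeR, adjusted p = 0.0677). HLA-DRA and HLA-DPB1 were members at under 0.3 CPM in every library, HLA-DRA with an overlap for harmine, and CD74, the invariant chain, was no member (-0.80 and 0.59). These genes differ between people and have near copies, so their reads may be split or lost.

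**Figure D3:**
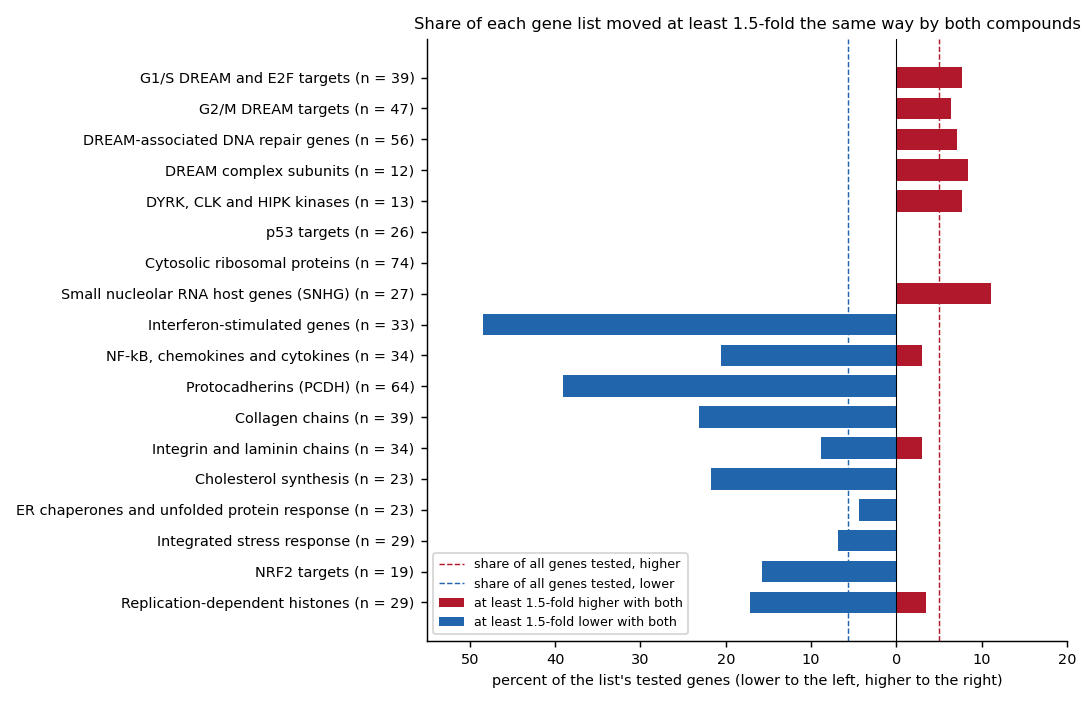
Share of the tested genes of 18 lists (number tested in brackets) that were at least 1.5-fold higher (red, right) or lower (blue, left) with both compounds, in percent, with dashed lines at the shares of all genes tested. Interferon-stimulated genes (48.5%) and protocadherins (39.1%) have the longest bars. The DREAM lists, of which the one of subunits also counts DYRK1A, end near the dashed line, which covers genes of every level and kind.

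Protocadherins, adhesion molecules of the cadherin superfamily that give neurons their surface identity, were the other family with a large share. Of 64 tested, 48 were called lower and 5 higher for the mean effect (median -0.82), 25 (39.1%) were past 1.5-fold lower with both and none was higher. The clustered genes lie in 3 arrays on chr5, and 14 of 18 tested beta genes, 5 of 15 alpha genes and 2 of 20 gamma genes were members, with the arrays looked at separately only after the values were seen. In the beta array, 10 consecutive tested genes from PCDHB8 to PCDHB19P (chr5:141177790-141242293) and the 4 from PCDHB3 to PCDHB6 were all past the rule. All 18 beta genes were below 0 with harmine and 17 with INDY, with medians of -1.09 and -0.85.

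PCDHB5 had the smallest errors of the named beta genes. It was at 13.2, 14.3, 14.9 and 13.6 CPM with water and 5.95, 6.85, 6.10 and 6.99 with harmine. It was at 14.3, 14.97, 15.1 and 14.5 CPM with DMSO and 6.44, 7.28, 6.57 and 6.84 with INDY. The groups were clearly apart and the log2 fold changes were -1.11 (SE 0.06) and -1.12 (SE 0.06). PCDHB15 (-1.08 and -0.11), PCDHB17P (-1.26 and 0.18), PCDHB2 and PCDHB7 lay in the same array and were past 1.5-fold lower with harmine alone. The beta genes resemble each other, and 19.8 to 58.2% of the 31-base stretches of the 12 protein-coding members, and 91.5 and 100% of those of the pseudogenes PCDHB19P and PCDHB18P, occur in another gene, so that single genes are less certain than the array. In the gamma array all 20 genes were below 0 with INDY (median -1.16) and 13 with harmine (median -0.22).

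**Figure D4:**
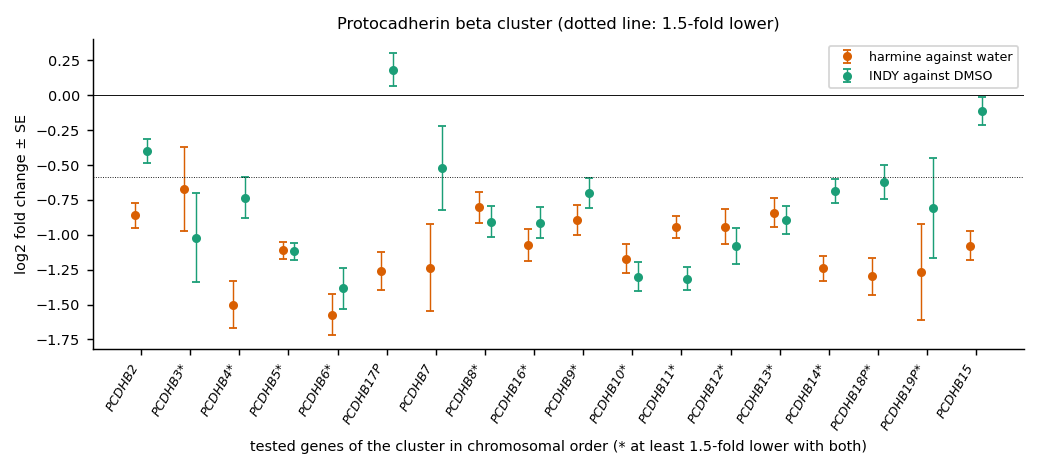
Log2 fold change (y axis) of the 18 tested genes of the protocadherin beta array in chromosomal order (x axis), with harmine (orange) and INDY (green), error bars showing SE. Nearly all points lie below 0 and 14 genes (asterisks) are below the dotted 1.5-fold line with both compounds, while PCDHB2, PCDHB17P, PCDHB7 and PCDHB15 are below it with harmine alone.

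Of 39 collagen genes, 27 were called lower and 3 higher for the mean effect (median -0.53). The medians were -0.24 with harmine and -0.91 with INDY. Past 1.5-fold lower with both were 9 (23.1%). Of these, COL11A1, a minor fibrillar collagen, went from 107 ± 3.67 to 61.3 ± 2.42 CPM after harmine and from 82.3 ± 1.66 to 6.92 ± 0.65 after INDY. COL5A2, which sets fibril diameter, had -0.72 (SE 0.04) and -0.75 (SE 0.04). The other 7 collagens (COL3A1, COL6A5, COL6A6, COL14A1, COL15A1, COL21A1 and COL24A1) had a mean log2 CPM under 1, and 4 of the 9 remained in the fit of genes with at least 10 counts in every library.

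Among 34 integrin and laminin chains, 22 were called lower and 8 higher for the mean effect (median -0.46), 3 were past 1.5-fold lower with both (8.82%) and ITGA8 was higher. The medians were -0.17 with harmine and -0.59 with INDY. ITGAM, the alpha chain of the leukocyte integrin Mac-1, had 33.9, 35.0, 36.8 and 36.5 CPM with water and 12.4, 10.6, 10.7 and 11.6 with harmine. It had 34.7, 31.9, 32.1 and 33.3 CPM with DMSO and 6.02, 7.80, 4.75 and 6.73 with INDY, which gave log2 fold changes of -1.65 (SE 0.09) and -2.39 (SE 0.09). Its neighbour in function ITGAX, the alpha chain of p150,95, had -0.90 and -0.75, and the laminin gene LAMA1 went from 191 ± 3.55 to 111 ± 3.43 CPM and from 173 ± 2.58 to 62.5 ± 3.99. Of the mesenchymal genes, the growth factor receptor PDGFRB (-0.71 and -1.51), the surface protease FAP (-1.07 and -0.91) and the proteoglycan LUM (-1.06 and -0.95) were past the rule, 3 of 16. That list had 5 genes called higher and 7 lower for the mean effect (median -0.09). The summed CPM of 8 mesenchymal markers was 3720 to 4320 in water and 5420 to 5610 in harmine libraries, and 3970 to 4310 in DMSO and 3550 to 4030 in INDY libraries, with FN1, which codes for fibronectin, at log2 fold changes of 0.90 and -1.52. Their part in the falls was not tested. The epithelial list had 3 of 10 lower (CDH1, CDH3 and KRT7), of which KRT7 alone was above a log2 CPM of 1 (-0.61 and -1.30).

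The other genes with the largest falls were of mixed functions. ANO9, a scramblase and channel of the anoctamin family, had 17.5, 14.6, 14.5 and 19.7 CPM with water and 4.07, 3.86, 4.02 and 4.22 with harmine. It had 11.6, 11.4, 10.5 and 10.7 CPM with DMSO and 1.68, 1.94, 1.96 and 1.60 with INDY. The log2 fold changes were -2.03 (SE 0.09) and -2.61 (SE 0.10), and the 2 vehicle groups did not overlap either. PLEK, the platelet protein pleckstrin, went from 8.11 ± 0.561 to 1.83 ± 0.15 CPM and from 8.34 ± 0.389 to 2.59 ± 0.504. GABRG1, a GABA-A receptor subunit, had -1.85 (SE 0.14) and -2.88 (SE 0.16), PRUNE2 had -2.02 and -2.46, and ARPP21, a cAMP-regulated phosphoprotein of the brain, had -2.35 and -2.01. The proteases PAPPA2, which cleaves IGF binding proteins (-1.62 and -3.10), and ADAM28 (-1.57 and -1.88), the secreted protein ADAMTSL2 (-1.91 and -2.60) and the RAS activator RASGRP3 (-1.46 and -1.98) were also among the largest falls, together with KLRC2 (-1.72 and -1.51) and ANXA8L1 (-1.47 and -2.15), which share 57.4 and 88.8% of their sequence with other genes.

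Genes of sterol synthesis were lower at high counts. Of 23 cholesterol synthesis genes, 20 were called lower and 3 higher for the mean effect (median -0.46), and 5 (21.7%) were past 1.5-fold lower with both, none of them 2-fold. SQLE, the squalene epoxidase, had 418, 398, 410 and 427 CPM with water and 276, 269, 265 and 266 with harmine. It had 406, 389, 387 and 394 CPM with DMSO and 188, 200, 174 and 204 with INDY, so the treated libraries lay far below both vehicle groups, with log2 fold changes of -0.62 (SE 0.04) and -1.04 (SE 0.04). MSMO1 (-0.65 and -1.26) and IDI1 (-0.59 and -1.02), enzymes of the pathway, and STARD4, a sterol carrier (-0.76 and -0.64), were also among them.

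The chaperones of the endoplasmic reticulum showed many small falls and 1 large one. Their medians were -0.17 with harmine and -0.53 with INDY. Of 23 genes of this list, 20 were called lower and 1 higher for the mean effect (median -0.39), but HSPA5, which encodes the chaperone BiP, was the single member. It had 707, 730, 714 and 692 CPM with water and 407, 406, 404 and 408 with harmine. It had 697, 688, 725 and 698 CPM with DMSO and 355, 357, 347 and 367 with INDY. The log2 fold changes were -0.81 (SE 0.03) and -0.98 (SE 0.03), and 13.9% of its sequence is shared with other genes. From the integrated stress response, SLC7A11, the cystine transporter that is also an NRF2 target, went from 59.3 ± 3.83 to 29.3 ± 3.16 CPM and from 66.9 ± 2.02 to 21.4 ± 7.23, and CHAC1, which degrades glutathione, had -0.82 (SE 0.15) and -0.88 (SE 0.15). Both had lower values in INDY replicates 1 and 3 than in 2 and 4. With ME1 and PIR, 3 of 19 NRF2 targets were past the rule.

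Of 29 replication-dependent histone genes, 17 were called lower and 1 higher for the mean effect (median -0.38), and 5 (17.2%) were past 1.5-fold lower with both. The medians were unequal between compounds, at -0.72 with harmine and -0.02 with INDY, so the mean effect of this list was mostly that of harmine. These transcripts mostly lack a poly(A) tail, and the libraries were made from poly(A) RNA. The linker histone H1-2 had means of 69.0 CPM in water and 41.8 in harmine libraries, and of 71.5 in DMSO and 45.7 in INDY libraries. H4C8 had log2 fold changes of -1.12 and -1.27, H2BC4 had -1.70 and -1.25, and H2AC20 was higher (1.00 and 0.67) at a mean log2 CPM of -0.1.

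Many lists had no member or a single one. None of 26 p53 targets, 74 cytosolic ribosomal proteins, 34 SR proteins and hnRNPs, 31 proteasome subunits, 26 immediate early genes, 15 cytosolic heat shock genes, 13 mitochondrially encoded mRNAs or 11 D cyclins, CDK4/6 and CDK inhibitors was past the rule. This did not mean that they were all unmoved, since 20 p53 targets and 60 ribosomal protein genes were called higher for the mean effect, with medians of 0.19 and 0.14. Of all genes tested, 31.7% were called higher. Past the rule were 4.93% higher and 5.7% lower, but above a mean log2 CPM of 5 only 0.444% and 0.949%, so nothing is read from lists without a member. Singles were the nuclear receptor NR1D1 of the clock (-0.62 and -1.14), the melanosomal glycoprotein GPNMB of the lysosome list (-0.79 and -0.97), the Hedgehog effector GLI1 (-0.66 and -1.04), the Hippo pathway factor TEAD2 (-0.78 and -1.0018), the activin antagonist FSTL3 (-0.71 and -0.86), the stress protein SESN3 (-0.67 and -0.86), the carbonic anhydrase CA12 (-0.61 and -1.05) and, upward, the smooth muscle actin ACTA2 (1.53 and 0.63), the Notch ligand DLL4 (1.01 and 0.96) and the Wnt antagonist SOST of bone (0.95 and 4.13), both of the latter at a mean log2 CPM under -1. In the Wnt list, the ligand WNT7B (-1.29 and -1.17) and RNF43 (-0.90 and -1.70) were lower, the latter with 68.2% shared sequence, and the feedback inhibitor NKD2 (0.61 and 1.04) and SFRP4 were higher. Among 60 guidance genes, SEMA3C (-1.38 and -0.59), SEMA3E (-1.22 and -1.94), SEMA4A, EPHA5 and DCC were lower, and the semaphorin co-receptor PLXNA2 (1.03 and 1.17) and NTN5 were higher. Of 19 cAMP and CREB targets, 3 were lower, the neuropeptide gene VIP among them with PDE4D and PPARGC1A. Of 27 small nucleolar RNA host genes, 3 (11.1%) were higher with both and none was lower. The share higher with both was 4.93% of all genes tested and 9.71% of long non-coding RNA genes, so nothing is read from this count. In all, 97 of the 1007 higher and 216 of the 1165 lower genes were in any of the 49 lists and 13 families.

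The members with the most counts, picked after their values were seen, belonged to other functions still. ARHGAP29, a GTPase-activating protein, went from 285 ± 15.6 to 568 ± 21.4 CPM after harmine and from 211 ± 13.3 to 345 ± 15.7 after INDY. SCRIB, a cell polarity scaffold, had 0.77 and 0.73, RHBDD2, a rhomboid family protein, had 0.74 and 1.07, and NCAPH, a condensin subunit, had 0.66 and 0.65. On the lower side, HSPA5 and SQLE were joined by PTPRN, a protein of secretory granules, which went from 524 ± 9.6 to 328 ± 6.59 CPM and from 556 ± 8.55 to 311 ± 6.33. CALU, a calcium-binding protein of the secretory pathway, had -0.59 and -1.31, and HSPG2, the basement membrane proteoglycan perlecan, had -0.67 and -1.29.

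The members were mostly weakly expressed. Of the 1007 genes higher with both, 502 (49.9%) had a mean log2 CPM under -1, as had 473 (40.6%) of the 1165 lower, while 17.7% of all genes tested did. The share past the rule fell with level, from 13.8% higher and 13% lower below -1 to 0.444% and 0.949% above 5. At a mean log2 CPM of at least 1, 258 genes higher and 399 lower were left. Protein-coding genes were 47.5% of those higher and 64.5% of those lower, against 74.3% of genes tested, and long non-coding RNA genes were 36.6% and 28.1%, against 18.6%. Pseudogenes were 12% and 5.75%, against 5.66%. Within the genes at a log2 CPM of at least 1, the shares were 1.47% of protein-coding genes, 5.79% of long non-coding RNA genes and 4.41% of pseudogenes higher with both. Protein-coding members higher with both had a median exonic length of 3438 bp and 7 exons in the canonical transcript, those lower had 4680 bp and 9, and all tested had 5222 bp and 9.

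**Figure D5:**
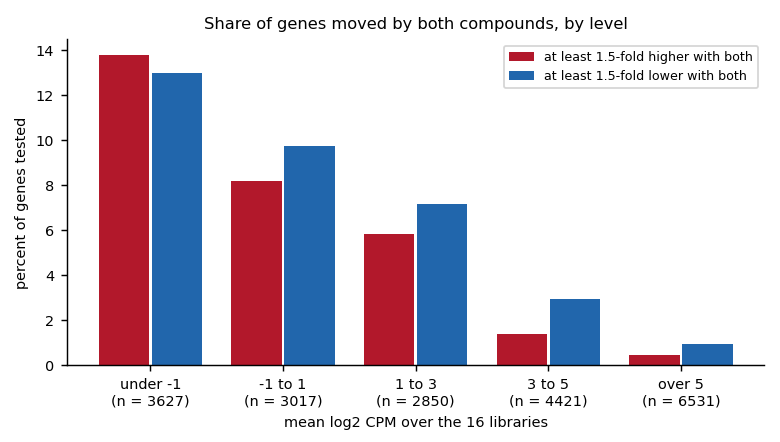
Percent of tested genes (y axis) that were at least 1.5-fold higher (red) or lower (blue) with both compounds, by mean log2 CPM over the 16 libraries (x axis, number of genes tested in brackets). The share fell from 13.8 and 13% in the lowest class to 0.444 and 0.949% in the highest.

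Promoter words differed in frequency between members and all genes, as a description without a test. In the 250 bases upstream of the start of 12026 tested protein-coding genes with a RefSeq promoter, the E2F form stood in 6.17% of 324 genes higher with both, 5.14% of 545 lower and 8.07% of all. The CHR element stood in 9.57, 13.8 and 9.01%. The ETS word CCGGAAG stood in 8.95, 3.85 and 14.5%, the AP-1 word TGANTCA in 5.56, 9.54 and 4.47%, the TATA word TATAAA in 7.72, 11.9 and 6.19%, and the interferon form in 5.25, 11.2 and 5.67%. The letters were searched on both strands. In the interferon list 7 of 11 members with a promoter held GAAANNGAA and 8 of 16 non-members did. The E2F form stood in 17 of 34 G1/S genes (50.0%), and in RBL1 alone of the 3 members, and the CHR element in 20 of 39 G2/M genes (51.3%), with no match among the 2 members that had a promoter.

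The sizes of the effects were not the same for the compounds, which were given at different doses in different vehicles. The median log2 fold change of the 1007 genes higher with both was 0.98 with harmine and 1.58 with INDY, and that of the 1165 lower was -0.97 and -1.32. Of the higher genes, 713 were not called different between the compounds, 266 were called larger with INDY and 28 larger with harmine (edgeR, adjusted p under 0.01 for the difference). Of the lower genes, 824 were not called different, 283 were larger with INDY and 58 with harmine. Among all genes, 54.5% were called different, and a call that is missing does not show equal effects. With the naming rule's level and separation, the largest differences upward were in LTA, the muscle glycogen phosphorylase gene PYGM (1.12 and 3.55) and LINC02878 (0.83 and 2.96). Downward they were in VIP, a neuropeptide gene, which went from 14.02 ± 1.69 to 8.70 ± 0.558 CPM after harmine and from 10.4 ± 0.416 to 0.599 ± 0.153 after INDY, in the cytokine receptor gene IL21R (-0.88 and -3.76) and in COL11A1. At least 2-fold with both were 400 genes higher and 393 lower, and at least 4-fold 52 and 33.

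Some members also differed between the vehicles. Between DMSO and water, 877 genes (4.29% of all) were called different, a count that fell to 356 without water replicate 1, 372 without water replicate 4 and 121 without both, and to 329, 347 and 343 without DMSO replicate 2, 3 or 4, but was 1357 without INDY replicate 3. Of the 1007 genes higher with both, 3 were also called higher in DMSO and 5 lower, while of the 1165 lower with both, 83 (7.12%) were called lower in DMSO and 8 higher. Both effects share a vehicle group with this comparison, so their values are set side by side only. The log2 difference of DMSO against water was -1.18 (SE 0.15) for CCL2, -0.80 (SE 0.14) for LTB, -0.58 (SE 0.08) for ANO9, -0.56 (SE 0.06) for OASL and -0.64 (SE 0.10) for LUM. For LTA it was -0.41 (SE 0.19), for RBL1 0.14 (SE 0.05), for POLQ 0.04 (SE 0.05) and for HSPA5 -0.02 (SE 0.03). Water replicates 1 and 4 stood apart from 2 and 3 on a principal component that held 4.81% of the variance, and in ANO9, CCL2, LTB and RIGI they were also the 2 highest water libraries. Leaving both out gave 1158 genes higher and 1255 lower, with 900 of the 1007 and 1055 of the 1165 kept.

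At the threshold the values were close on both sides. The genes just inside were NAA80 (0.59 and 0.86) and ZNF501 (0.60 and 0.59) upward and CHSY3 (-0.58 and -1.63) and IDI1 (-0.59 and -1.02) downward. Just outside, beside FANCD2, were CYS1 (0.59 and 0.58) upward and AMMECR1 (-0.58 and -2.32) and NUCB2 (-0.63 and -0.58) downward. Refits without each of the 16 libraries in turn kept 723 of the 1007 (71.8%) and 885 of the 1165 (76.0%) every time. The 30 genes named for the largest effects stayed members in all 26 refits of the model. They were picked as the furthest past the threshold in these same libraries, so nothing is read from this for the other members.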

How the data were processed

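Poly(A) RNA of 16 U2OS libraries, 4 per group, was sequenced with strand kept. Per the labels and methods, the authors estimated transcript abundance with Salmon (1.1, selective alignment to GENCODE transcripts, the GRCh38 genome serving as decoy), summed it to genes with tximport and tested with edgeR (3.28.1). The deposited values are these estimated counts per gene, not whole numbers, with 1 row per gene name. Here they were rounded, and 20446 of 59081 genes were kept by filterByExpr. edgeR 4.0.16 (R 4.3.3) with TMM scaling fitted 1 quasi-likelihood model of the 4 groups, and adjusted p-values follow Benjamini and Hochberg over all genes tested, called under 0.01. The contrasts were harmine against water, INDY against DMSO, their mean, their difference, and DMSO against water. CPM use TMM-scaled library sizes, and mean log2 CPM a prior count of 2. Totals of 44301910 to 65889667 counts limit the precision of genes with few counts, where counting error is above the biological coefficient of variation of 0.0561.

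Named genes were, without overlap of treated and control libraries and with log2 CPM averaging 1 or more, the 15 with the largest smaller effect in each direction and the 3 with the largest difference between compounds, then the top 3 per list (or all of 5 or fewer), the 2 nearest the threshold on either side, and DYRK1A with the DREAM subunits. Some items are not reported here. Other genes were picked after their values were seen. Members and lists, the latter from general knowledge, were chosen with earlier results of these data known. Shared sequence is the percent of a gene's distinct 31-base stretches found in another gene of GENCODE 44. Gene positions come from the same annotation, with 2278 of the 59081 genes matched by name only, and promoters (250 bases upstream, of which 150 are printed) from RefSeq on GRCh38.p14. The code was tested on simulated counts. Alternatives were upper-quartile scaling, DESeq2 1.42.0, limma 3.58.1, other filters, thresholds and prior counts, a replicate block, separate fits and left-out libraries.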

Additional observations from a re-analysis of the deposited data

Results flagged for a closer look

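Over the 59 genes examined in the 4 groups, 14 of 236 groups of 4 libraries had 1 library whose gap to the nearest of the others, as a share of the range, was above Dixon's 95% critical value. Chance flags about 1 in 20 groups, and no cause was tested.

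Among genes higher with both compounds, LTA had 30.4 CPM in 1 INDY library against 23.47 to 24.14 in the other 3. PICART1 had 13.19 CPM in 1 harmine library against 11.37 to 11.49, and 3.182 in 1 DMSO library against 2.518 to 2.567. SAXO2, which codes for an axonemal protein, was low in 1 water library (0.9238 against 1.365 to 1.385 CPM) and in 1 DMSO library (0.8557 against 1.193 to 1.235). BIRC5 had 81.57 CPM in 1 DMSO library against 83.12 to 83.37, and PLK4 had 40.14 in 1 INDY library against 43.76 to 44.16.

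Among genes lower with both, LTB had 11.03 CPM in 1 DMSO library against 7.577 to 8.008, and 1.141 in 1 INDY library against 1.346 to 1.376. GBP4 had 7.652 CPM in 1 harmine library against 8.484 to 8.652, PLEK had 7.275 in 1 water library against 8.315 to 8.463, and RASGRP3 had 1.319 in 1 INDY library against 0.6837 to 0.7403. Of the DREAM subunits, E2F5 had 5.553 CPM in 1 harmine library against 4.938 to 5.012, and RBL2 had 81.98 in 1 water library against 79.28 to 79.62. In each of these genes that was a member, the lone library did not close the gap between treated and control libraries.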

How the results depend on the processing

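None of the mean effects of the named genes changed sign under the alternatives run. Counts of members, of calls and of list genes have no sign to reverse, and several of them moved, as given below. Promoter words, gene kinds and level classes were not recomputed. The filter and the threshold set the number of members. There were 2738 genes higher and 3213 lower with both compounds without a filter on low counts, 493 and 645 among genes with at least 10 counts in every library, 400 and 393 at a fold of 2, and 258 and 399 at a mean log2 CPM of at least 1, an alternative added after seeing the data. Asking also for an adjusted p under 0.01 with each compound (edgeR) left 605 higher and 832 lower. Leaving out each library in turn gave 992 to 1085 genes higher and 1182 to 1279 lower. For the mean effect these fits called 6181 to 6466 genes higher and 6323 to 6616 lower, and for the difference between compounds 10584 to 11306.

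DMSO against water was the least stable comparison, with 877 genes called by edgeR, 1581 by DESeq2 and 329 to 1357 without a library. It gave 121 without water replicates 1 and 4 and 1669 without INDY replicates 1 and 3, which were added after seeing the data. The cause was not tested. The mean effects of the named genes kept their side of the threshold in 2632 values over the refits, and the 32 exceptions were the DREAM subunits TFDP1, LIN52 and LIN37.

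Same-numbered treated and control libraries had correlations of -0.053 to 0.087 between their deviations from the group mean, and differently numbered ones -0.099 to 0.108. Replicate numbers therefore showed no visible pairing of each compound with its vehicle. Harmine with INDY libraries and water with DMSO libraries were not compared, so a shared culture or batch cannot be told from this. With the replicate block there were 995 genes higher and 1167 lower, 6425 and 6417 called for the mean effect, 10892 for the difference and 802 for DMSO against water. Depth limits the members of low level, which are many, and 4 libraries per group limit the rest.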
